A study of Mus musculus with 6 samples.

Results

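The genes described here are *Igf1r*, *Igfbp4* and *Igfbp5*, which encode the type 1 insulin-like growth factor (IGF) receptor and a pair of IGF binding proteins. They were chosen by gene symbol from a deposited expression table, with their differences on it already known. They are 3 of the 5322 named genes on that table. Each is read by 1 of the table's 6951 transcript clusters, which are sets of array probes summarised into 1 value. The arrays measured RNA of N2A cells, which come from a mouse neuroblastoma, after depletion of *Kap1* (gene symbol *Trim28*), which encodes a chromatin corepressor. The study asked which genes depend on KAP1 in these cells.

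The knockdown group carried the shA *Kap1* short hairpin RNA (shRNA) vector and the control group a non-targeting scrambled shRNA, with 3 arrays in each. All 6 samples received 1.5 µg of shRNA plasmid and 300 ng of the selection plasmid pTK-Hyg, went into hygromycin after 3 days and were harvested after 7 days of selection. In the vector used for the *Kap1* hairpin, a U6 promoter drives the shRNA and a CMV promoter drives eGFP. Each sample was therefore a drug-resistant pool rather than a clone, 1 hairpin stands for *Kap1* depletion, and no untransfected sample was part of the comparison. The intensities are linear values normalised by Robust Multi-array Average (RMA), and no measurement of IGF protein or of signalling was analysed here.

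IGFs are small secreted hormones related to insulin. They bind the type 1 receptor, a tyrosine kinase at the cell surface that signals through insulin receptor substrate (IRS) docking proteins to phosphoinositide 3-kinase (PI3K), AKT and the growth regulator mTOR, and through SHC and GRB2 to the MAP kinases. Secreted IGF binding proteins hold most IGF outside cells and, depending on the protein and on the proteases that cleave it, limit or prolong its access to the receptor. In neuroblastoma and in the developing nervous system this pathway is known for its part in survival and proliferation.

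The hairpin is shown because it defines the knockdown group. The forward cloning oligonucleotide of shA *Kap1* is 52 bases long. It is printed 5′ to 3′ with its longest pair of exactly complementary runs, of 17 bases each, in capitals. The 11 bases between them include the loop.
Kap1 shA: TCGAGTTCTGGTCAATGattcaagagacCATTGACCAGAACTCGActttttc

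The promoters of the members are shown because their sequence played no part in how the genes were chosen. Each run holds the 250 bases before the annotated transcription start (RefSeq, mouse build GRCm38.p6), 5′ to 3′ on the strand of the gene. Capitals mark exact matches. The letters of the TATA box, TATAAA, were searched on both strands. So were those of a variant of that box, TATTTA, those of the GC box, GGGCGG, and those of the CCAAT box.
Igf1r: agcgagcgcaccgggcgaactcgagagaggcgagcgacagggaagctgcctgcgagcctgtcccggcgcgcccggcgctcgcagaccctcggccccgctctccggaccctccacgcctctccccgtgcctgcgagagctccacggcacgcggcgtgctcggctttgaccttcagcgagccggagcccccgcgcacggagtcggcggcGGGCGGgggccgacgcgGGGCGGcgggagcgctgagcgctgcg
Igfbp4: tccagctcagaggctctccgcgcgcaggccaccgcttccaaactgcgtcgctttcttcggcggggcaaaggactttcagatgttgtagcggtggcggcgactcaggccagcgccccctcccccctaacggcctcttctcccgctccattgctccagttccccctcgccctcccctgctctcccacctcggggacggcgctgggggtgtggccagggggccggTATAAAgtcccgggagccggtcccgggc
Igfbp5: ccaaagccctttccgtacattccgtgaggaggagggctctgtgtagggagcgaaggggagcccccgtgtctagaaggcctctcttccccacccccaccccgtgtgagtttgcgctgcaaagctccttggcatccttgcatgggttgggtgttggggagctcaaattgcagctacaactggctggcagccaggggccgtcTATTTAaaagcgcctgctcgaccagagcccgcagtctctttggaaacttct

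The promoter windows differed in kind. The *Igf1r* window (chr7:67952007-67952256, plus strand) was 77.6% G or C and held 42 CpG dinucleotides, a number reached by 0.865% of the 32851 RefSeq promoter windows of the same length. It held 2 GC boxes, at -43 to -38 and -26 to -21 from the start, and no TATA box of either spelling. The *Igfbp4* window (chr11:99040994-99041243, plus strand) was 69.2% G or C with 22 CpG, which 14.8% of windows reached, and its TATAAA lay at -28 to -23. The *Igfbp4* gene is annotated from 99040005, upstream of this window, so the window stands for only 1 of its starts. The *Igfbp5* window (chr1:72874866-72875115, minus strand) was 58.8% G or C with 10 CpG, which 37.8% of windows reached, and its TATTTA lay at -51 to -46. TATAAA was found in 12.4% of all windows, TATTTA in 12.7%, GGGCGG in 32.7% and CCAAT, which none of the 3 windows held, in 33.8%. The median window had 6 CpG and 52.4% G or C. The receptor window is thus the CpG-dense one without a TATA match, whereas those of the binding proteins carry a TATA-like run near the start. A match is a description of the sequence and not a measured site.

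The targeted gene, *Trim28*, read 3377, 3443 and 3267 on the control arrays and 866, 861 and 936 on the knockdown arrays, so the knockdown held 26.4% of the control mean (log2 fold change -1.92, SE 0.054, limma adjusted p = 1.30e-08, n = 3 per group). The array medians were 505 to 553 in the control group and 507 to 528 in the knockdown group. Of 15 sympathoadrenal markers, which N2A cells should express, 11 were on the table, including *Phox2a*, *Gata2*, *Gata3*, *Th*, *Dbh* and *Chga*. Of these 11, 3 rose and 4 fell, while 15.8% of all named genes rose and 16.5% fell. The markers named here and *Mycn* are the ones that changed. The summed intensity of the 11 was 23840 to 24605 in the control and 22179 to 23385 in the knockdown. The 6 markers of neural crest and Schwann cells had 2 on the table, *Erbb3* and *Egr2*, and both rose, with a summed intensity of 305 to 334 against 518 to 623. The only astrocyte marker of 5 on the table, *Sox9*, which neural crest derivatives also express, fell from 1097 to 1138 to 435 to 533. Of 7 fibroblast markers only *Pdgfra* was on the table and it did not change by the fold threshold (107 to 119 against 95 to 96). The part of these markers in the results below was not tested. In a pool of cells, fewer cells expressing a gene and less RNA per cell cannot be told apart.

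All 3 members were lower in the knockdown. The receptor gene *Igf1r*, whose product starts the kinase signal, read 1481, 1449 and 1315 on the control arrays and 557, 560 and 585 on the knockdown arrays. The control arrays were all high and the knockdown arrays all low, without overlap, and the spread was mostly among the controls. The mean was 1415 ± 88.1 in the control and 567 ± 15.4 in the knockdown (SD, n = 3), which is 2.49-fold lower or 40.1% of the control level. On the log2 scale the difference was -1.32 (SE 0.059).

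*Igfbp4* encodes a secreted binding protein that is cleaved by the metalloproteinase PAPP-A, which releases the bound IGF. Its intensity was 842, 857 and 897 on the control arrays and 245, 260 and 260 on the knockdown arrays. Both groups were tight, and the knockdown lay far below the control on every array. The mean was 865 ± 28.4 against 255.0 ± 8.66, 3.39-fold lower, which left 29.5% of the control level (log2 difference -1.76, SE 0.053).

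*Igfbp5* encodes a binding protein that also associates with the extracellular matrix. It read 350, 349 and 302 on the control arrays and 149, 149 and 169 on the knockdown arrays. Replicate 3 of each group stood toward the other group, and the groups still did not overlap. With means of 334 ± 27.4 and 156 ± 11.5, *Igfbp5* was 2.14-fold lower at 46.7% of the control level (log2 difference -1.10, SE 0.076). The study also examined chromatin at the *Igfbp5* gene, and those measurements were not analysed here. Groups that do not overlap set no gene apart on this table, because 100% of its transcript clusters have none, so no p-value is given for the members, which were selected on this comparison.

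**Figure D1:**
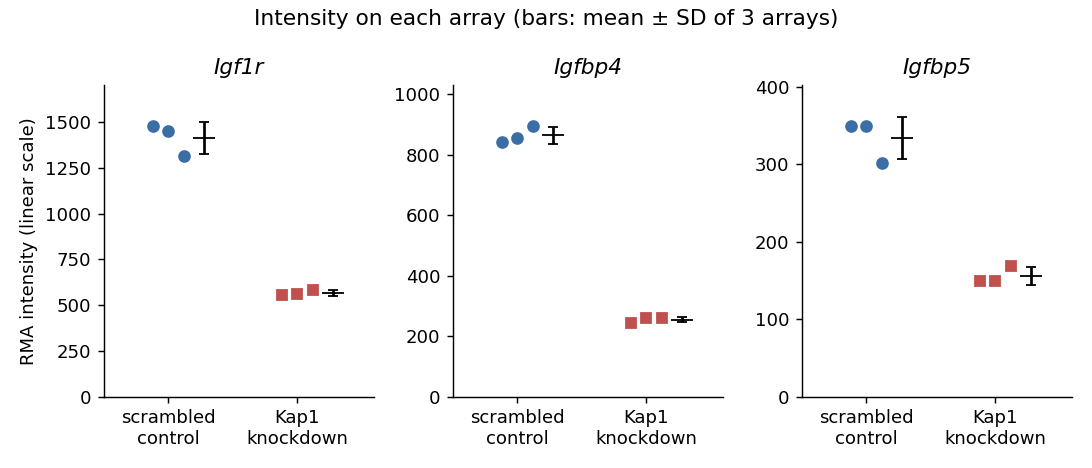
Linear RMA intensity of *Igf1r*, *Igfbp4* and *Igfbp5* on each scrambled control and *Kap1* knockdown array (points), with the mean and SD of 3 arrays as bars. Every knockdown array lies below every control array, with *Igf1r* at 1315 to 1481 against 557 to 585, *Igfbp4* at 842 to 897 against 245 to 260 and *Igfbp5* at 302 to 350 against 149 to 169.

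The size of the difference varied among the members by more than the knockdown arrays varied within a member. Relative to the log2 control mean, the knockdown arrays stood at -1.82, -1.73 and -1.73 for *Igfbp4*. They stood at -1.34, -1.34 and -1.27 for *Igf1r*, and at -1.16, -1.16 and -0.98 for *Igfbp5*. The shallowest *Igfbp4* array was therefore deeper than the deepest *Igf1r* array, and the shallowest *Igf1r* array deeper than the deepest *Igfbp5* array. The log2 difference of *Igfbp4* minus that of *Igfbp5* was -0.66, that of *Igfbp4* minus *Igf1r* was -0.45 and that of *Igf1r* minus *Igfbp5* was -0.22. These differences share the same 6 arrays and are given without a test. The ordering leaves out the spread of the control arrays. On the same scale those stood at 0.07, 0.07 and -0.14 for *Igfbp5* and at 0.07, 0.04 and -0.10 for *Igf1r*. The smallest difference, -0.22, is therefore not clear of replicate spread.

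The arrays did not order the members alike. Control replicate 3 was the lowest control for *Igf1r* and *Igfbp5* and the highest for *Igfbp4*, and it was also the control array with the lowest median over the table (505). Centring each array on its median lowered the SE of the log2 difference from 0.059 to 0.044 for *Igf1r* and from 0.076 to 0.059 for *Igfbp5*, and raised it from 0.053 to 0.060 for *Igfbp4*. The coefficient of variation in the control was 6.22% for *Igf1r*, 3.29% for *Igfbp4* and 8.22% for *Igfbp5*. In the knockdown it was 2.71%, 3.40% and 7.42%, so *Igfbp5* was the least even of the members in both groups.

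A transcript cluster is called changed, risen or fallen where limma gave an adjusted p of 0.05 or less and the groups differed 1.4-fold or more. Every transcript cluster on the table met that adjusted p as fitted (largest 0.0365), so the fold alone decided the call. By that rule 32.6% of the transcript clusters changed in either direction, 15.8% of the named genes rose and 16.5% fell. Which direction held more calls depended on the setting: 1043 transcript clusters rose and 1225 fell as fitted, against 1217 and 1123 after median centring. Leaving out control replicate 1 gave 1202 and 1099, and quantile normalization 1207 and 1135. All 3 members met it, on the comparison that chose them. Ranked by depth of fall among the 5322 named genes, *Igfbp4* was at position 34, *Igf1r* at 89 and *Igfbp5* at 151, so 0.620%, 1.65% and 2.82% of the named genes fell further. *Trim28* itself was at position 26.

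**Figure D2:**
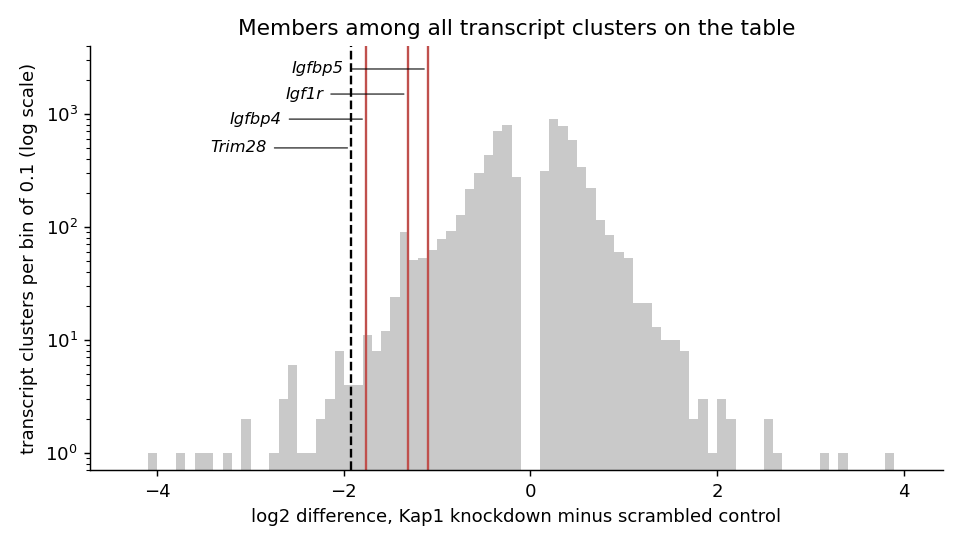
Number of transcript clusters per bin of 0.1 in log2 difference, *Kap1* knockdown minus scrambled control, on a log count axis, for the whole table of 6951. The lines for *Igfbp4* (-1.76), *Igf1r* (-1.32) and *Igfbp5* (-1.10) stand in the left tail, to the right of the dashed line of *Trim28* (-1.92).

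The other genes of the IGF axis were read from lists of 72 genes by role, members included. The table holds 33 of them, and for the other 39 no value was available here, since all of the deposited rows differ between the groups and an absent gene has no measured level. Without the members, 30 listed genes were on the table, of which 3 rose, 4 fell and 23 stayed under the fold threshold. That is 23.3% changed, against 32.3% of all named genes, with a median log2 difference of 0.20 against 0.15 for all named genes. Leaving out members that fell lowers that share by construction. With them, 3 of the 33 genes rose and 7 fell, so 30.3% changed. Of the 33, 17 had a positive and 16 a negative difference, so the axis as a whole did not move one way.

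None of the 4 ligand genes (*Igf1*, *Igf2*, *Ins1*, *Ins2*) was on the table. Among the receptors, *Insr*, the insulin receptor, which can pair with the type 1 IGF receptor in hybrid receptors, read 1454, 1454 and 1426 in the control and 1720, 1669 and 1852 in the knockdown. *Igf2r*, which takes IGF2 into the cell for degradation, read 71, 78 and 80 against 95, 91 and 104. Both were thus higher on every knockdown array but under the fold threshold, with log2 differences of 0.27 (0.42 from a dimmer *Insr* transcript cluster) and 0.34. *Igf1r* was the only 1 of the 3 receptor genes on the table that was lower.

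Of 9 binding protein genes 4 were on the table, the 2 members, which were picked for their low values, and *Igfbp6* and *Igfbp7*. Both of the latter were lower after knockdown, as were 49.7% of all named genes. *Igfbp7*, a relative that binds IGF weakly and insulin as well, read 6509, 6212 and 6244 on the control arrays and 2882, 2944 and 3178 on the knockdown arrays. The groups stood far apart, and *Igfbp7* fell to 47.5% of the control (6322 ± 163 against 3001 ± 156, log2 fold change -1.08, SE 0.056, limma adjusted p = 2.49e-07). Its log2 difference was within 1 SE of that of *Igfbp5*. *Igfbp6*, which prefers IGF2, read 293, 280 and 310 against 231, 198 and 204, a log2 difference of -0.48 (SE 0.070) that stood just under the fold threshold. It passed that threshold without control replicate 2 (-0.52) or without knockdown replicate 1 (-0.55). *Igfbp2*, the gene beside *Igfbp5* on chromosome 1, was not on the table.

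Among the proteases that cleave binding proteins and their inhibitors, 1 of 5 genes was on the table. *Stc2*, a secreted inhibitor of PAPP-A, read 221, 219 and 232 in the control and 320, 320 and 307 in the knockdown. It rose from 224.0 ± 7.00 to 316 ± 7.51 (log2 fold change 0.50, SE 0.051, limma adjusted p = 1.96e-05), just past the fold threshold. Without control replicate 2 its value was 0.48, and without knockdown replicate 1 or 2 it was 0.49, all under the threshold before rounding. The protease gene *Pappa* was not on the table, and neither were the 3 *Igf2bp* genes, whose products bind *Igf2* mRNA.

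Of 18 adaptors and brakes of the receptors 9 were on the table, with 1 risen, 1 fallen and 7 under the fold threshold. *Irs1*, the docking protein that links both receptor kinases to PI3K, read 626, 571 and 571 on the control arrays and 891, 942 and 886 on the knockdown arrays. It rose from 589 ± 31.8 to 906 ± 31.0 (log2 fold change 0.62, SE 0.057, limma adjusted p = 1.05e-05). *Socs2*, a member of the suppressor of cytokine signalling family best known for limiting growth hormone signalling, read 1440, 1387 and 1271 against 380, 442 and 423. It fell to 30.4% of the control (1366 ± 86.4 against 415 ± 31.8, log2 fold change -1.72, SE 0.072, limma adjusted p = 5.72e-08), a depth between those of *Igf1r* and *Igfbp4*. A second, dimmer *Socs2* transcript cluster fell by 1.47 on the log2 scale. The 2 are numbered far apart (10394674 for the brighter, 10372069 for the dimmer), and which of them lies at the *Socs2* gene was not checked. The docking protein and the brake thus moved opposite ways while the receptor was lower.

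Downstream, 16 of 32 genes from PI3K to the FoxO factors were on the table, 8 with a positive and 8 with a negative difference, and their median was 0.02. *Foxo4*, a transcription factor that AKT keeps out of the nucleus, rose from 280 ± 14.8 to 399 ± 17.0 (log2 fold change 0.51, SE 0.059, limma adjusted p = 4.14e-05). *Tsc2*, which holds back the mTOR activator Rheb, fell from 1016 ± 74.0 to 704 ± 46.9 (log2 fold change -0.53, SE 0.071, limma adjusted p = 0.000108). *Pik3r3*, a regulatory subunit of PI3K, fell from 695 ± 54.3 to 495 ± 6.03 (log2 fold change -0.49, SE 0.063, limma adjusted p = 8.39e-05).

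These 3 downstream calls stood close to the fold threshold. *Foxo4* was under it without control replicate 3 or without knockdown replicate 3 (0.48 each). *Tsc2* was under it without control replicate 1 or without knockdown replicate 1 (-0.47 each), and *Pik3r3* without control replicate 1 (-0.43) or knockdown replicate 1 (-0.48). *Pik3r3* was also under it after median centring (-0.46) and after quantile normalization (-0.44). The other 13 genes stayed under the fold threshold. Among them were *Akt1* (-0.15), *Akt2* (0.21, or 0.33 from a dimmer transcript cluster), *Mtor* (-0.21) and *Rptor* (0.22). The same held for *Rictor* (-0.33), *Rheb* (0.44), *Tsc1* (0.44) and *Foxo3* (0.19). *Tsc1* passed that threshold only without control replicate 1 (0.50), among the arrays left out in turn. The *Akt2* transcript clusters are numbered far apart (10374364 for the brighter, 10551393 for the dimmer). Which of them lies at the *Akt2* gene was not checked.

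**Figure D3:**
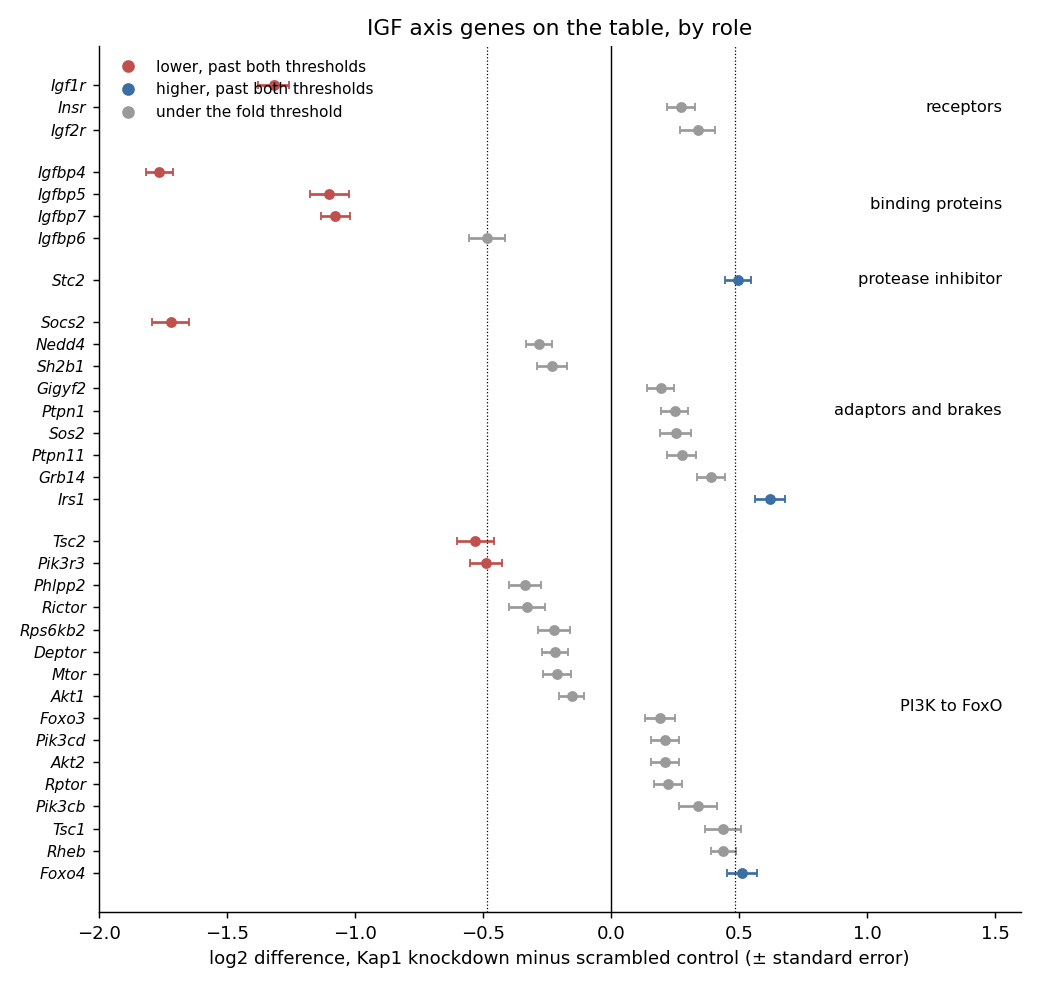
Log2 difference (*Kap1* knockdown minus scrambled control, ± standard error, n = 3 arrays per group) of the 33 IGF axis genes on the table, ordered by role, with dotted lines at the 1.4-fold threshold. *Igfbp4*, *Socs2*, *Igf1r*, *Igfbp5* and *Igfbp7* extend furthest to the left, while *Irs1*, *Foxo4* and *Stc2* are the only points past the threshold on the right.

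The members lie on different chromosomes, so their genomic neighbours were read separately, taking the 5 nearest protein-coding RefSeq genes on each side. By gene symbol, 6 of these 30 neighbours were on the table, 4 lower and 2 higher. Beside *Igf1r* on chromosome 7, *Nr2f2*, which encodes the nuclear receptor COUP-TFII, fell from 366 ± 27.5 to 188 ± 8.33 (log2 fold change -0.96, SE 0.066, limma adjusted p = 1.58e-06). *Synm*, which encodes the intermediate filament protein synemin, fell by 0.82 on the log2 scale (SE 0.069, limma adjusted p = 6.02e-06). *Mef2a*, a transcription factor gene, was lower by less than the fold threshold (log2 difference -0.48, SE 0.061), which it passed without control replicate 3 (-0.53) or knockdown replicate 3 (-0.52). All 3 neighbours of *Igf1r* on the table were thus lower, though less so than *Igf1r*.

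Chromosome 7 as a whole leaned the same way. Of the 407 other named genes of chromosome 7 on the table, 76.9% were lower, with a median log2 difference of -0.31, against 47.4% of the genes of the other chromosomes. On chromosome 11, which carries *Igfbp4*, 44.4% of 426 genes were lower, and on chromosome 1, which carries *Igfbp5*, 53.4% of 268. The part of the chromosome in the *Igf1r* difference was not tested.

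Around *Igfbp4* only *Top2a*, which encodes the DNA topoisomerase of dividing cells, was on the table. It was dim, at 64, 47 and 42 in the control and 35, 36 and 35 in the knockdown (log2 fold change -0.51, SE 0.13, limma adjusted p = 0.00382). That value rests on control replicate 1, without which it was -0.33 (SE 0.062) and under the fold threshold, and median centring also put it under the threshold (-0.48). Around *Igfbp5*, *Rpl37a*, a ribosomal protein gene whose probes may also read near-identical copies, and *Smarcal1*, a DNA annealing helicase gene, were higher by 0.34 (SE 0.063) and 0.23 (SE 0.055) on the log2 scale, under the fold threshold. The *Rpl37a* transcript cluster (10561138) is numbered between those of *Igf1r* (10554094) and *Mef2a* (10564451) on chromosome 7. Its number is far from those of *Smarcal1* (10347254) and *Igfbp5* (10355500), so it may not read the gene beside *Igfbp5*. The low values of *Igfbp4* and *Igfbp5* were therefore not shared by neighbours on the table to a like depth.

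**Figure D4:**
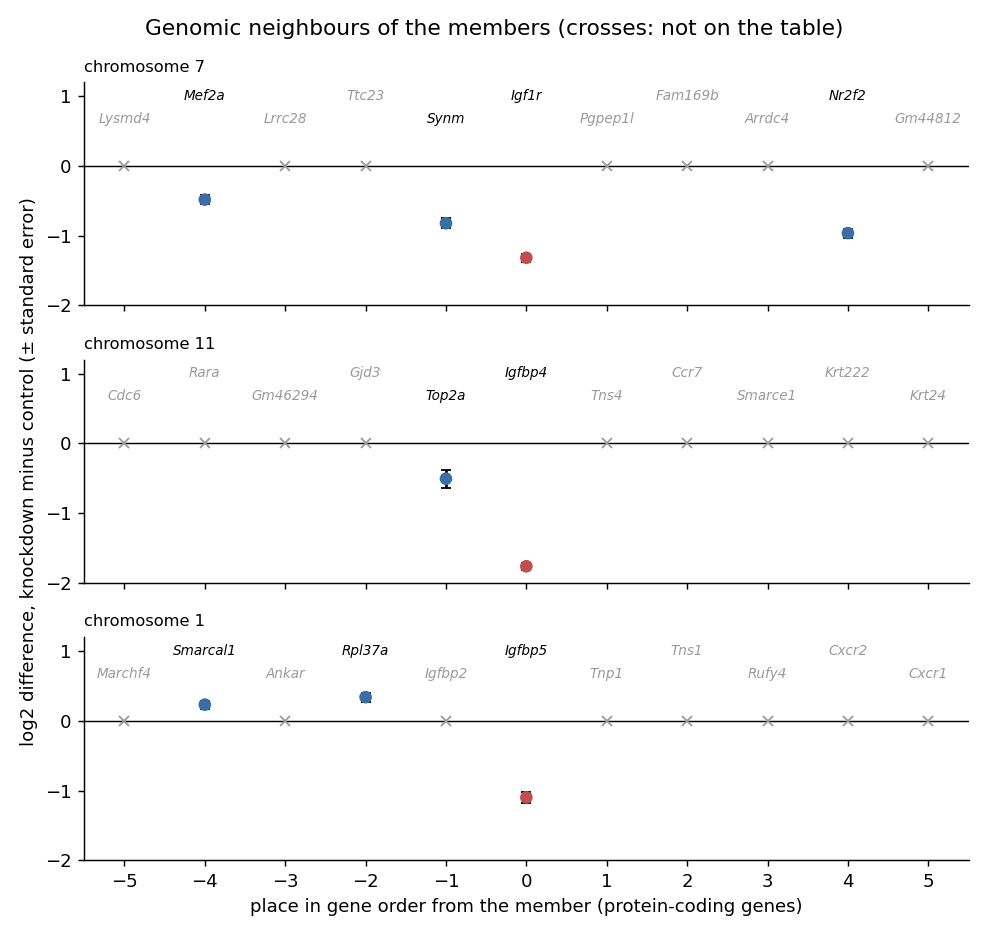
Log2 difference (*Kap1* knockdown minus scrambled control, ± standard error) of each member and of its 5 nearest protein-coding genes on each side, in gene order, with crosses for genes not on the table. The 3 neighbours of *Igf1r* on the table are lower (-0.48 to -0.96), *Top2a* beside *Igfbp4* is at -0.51 (-0.33 without control replicate 1), and both neighbours of *Igfbp5* are above 0. The *Rpl37a* value may not come from the gene at that place.

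For each member the 3 named genes with the most similar pattern were taken by the smallest root mean square difference in log2 intensity relative to the control mean, over the 6 arrays. Nearest to *Igf1r* were *Idi1*, an enzyme of isoprenoid synthesis (0.040), *Flna*, the actin cross-linker filamin A (0.044), and *Tbx20*, a T-box transcription factor (0.048). *Idi1* read 1803, 1677 and 1491 in the control and 660, 682 and 692 in the knockdown, with control replicate 3 the lowest control, as for *Igf1r*. Nearest to *Igfbp4* were *Lpar6*, a receptor for lysophosphatidic acid (0.067), *Lfng*, a glycosyltransferase that modifies Notch (0.078), and *Itgb4*, integrin beta 4 (0.090). These 3 did not share the order of the *Igfbp4* control arrays. *Lfng*, at 479, 478 and 520 against 154, 160 and 152, was highest in control replicate 3, as *Igfbp4* was, whereas *Lpar6*, at 249, 242 and 232 in the control, was lowest there and *Itgb4*, at 488, 438 and 468, was highest in control replicate 1.

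Nearest to *Igfbp5* were *Uprt* (0.034), *Tle3*, a Groucho family corepressor (0.037), and *Ryr2*, a calcium release channel (0.055). *Tle3* read 1735, 1683 and 1578 in the control and 739, 734 and 828 in the knockdown, with replicate 3 of each group displaced as in *Igfbp5*. The log2 differences of these genes were -1.29, -1.33 and -1.33 for the *Igf1r* set, -1.80, -1.66 and -1.79 for the *Igfbp4* set, and -1.08, -1.12 and -1.05 for the *Igfbp5* set. These genes were picked on the same array values, so their closeness to the member in log2 difference and array pattern follows from the choice. None of them is on the IGF lists.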

How the data were processed

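RNA from N2A cells with the shA *Kap1* or a scrambled shRNA was measured on 6 single-colour GeneChip Mouse Gene ST arrays. The authors normalised them by RMA in GeneSpring and deposited each intensity on a linear scale, rounded to whole numbers in the table used here. The same values were also deposited unrounded and differ by at most 0.5. The submitters' processing notes name limma. The genome build of the array annotation was not given in the sources used here. The table holds 6951 transcript clusters, all of which pass the adjusted p here (largest 0.0365), so it is a list selected on the comparison and carries no background of unchanged genes. The adjusted p-values printed for single genes were computed within that selected list. They are therefore no independent test of those genes. The number of arrays limits the precision.

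Arrays were grouped by their labels, which do not say whether replicates were separate transfections, so the p-values cover only how these samples spread, which may be technical. Log2 was taken of the deposited intensities. The fit used limma 3.58.1 (lmFit, then eBayes; R 4.3.3) with no block for the replicate number and with Benjamini-Hochberg adjustment over all transcript clusters. The fit was tested on simulated data. Symbols came from the platform annotation, in which 5733 transcript clusters have 1 symbol, 384 several and 834 none, and 5726 were matched to RefSeq by gene identifier. A gene with several transcript clusters was read from the brightest, and where a transcript cluster lies in the genome was not checked. Gene order, promoters and chromosomes came from RefSeq (GRCm38.p6), and the order of genes was used only for neighbours. Other steps used Python 3.11.15, numpy 2.4.6, pandas 2.3.3 and matplotlib 3.10.9.

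The members and gene lists were chosen with earlier results of these data known. The rule for naming genes took the members, the IGF axis genes on the table that changed or are ligands, receptors, binding proteins or their proteases, *Trim28*, the 3 genes most like each member, table genes among the neighbours, and marker genes that changed. The genes under the fold threshold named from the PI3K to FoxO list, *Pdgfra* and *Pappa* fall outside it and were chosen after their values were seen. Alternatives were the unrounded table, quantile normalization, median centring, a replicate block, trend and robust settings, a filter on dim rows, a pseudocount of 16, a fold of 2, an adjusted p of 0.01, the mean of a gene's transcript clusters, and leaving out each array in turn. The ChIP-seq, CHART-seq and qPCR data and the arrays of other knockdowns were not analysed here.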

Additional observations from a re-analysis of the deposited data

How the results depend on the processing

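The log2 differences of *Igf1r*, *Igfbp4* and *Igfbp5* kept their direction and stayed past the fold threshold under every alternative run, with ranges of -1.37 to -1.28, -1.78 to -1.70 and -1.17 to -1.03. A pseudocount of 16 shrinks log2 differences by construction, and with it *Igfbp4* moved to -1.70 and *Igfbp5* to -1.03. With 1 array left out at a time the values were -1.37 to -1.28 for *Igf1r*, -1.78 to -1.73 for *Igfbp4*, -1.17 to -1.06 for *Igfbp5* and -1.96 to -1.90 for *Trim28*. The changed transcript clusters then numbered 2244 to 2348 and the changed IGF axis genes 8 to 10. At a fold of at least 2, 505 transcript clusters changed in place of 2268, and 5 axis genes in place of 10, the 3 members, *Igfbp7* and *Socs2*, all lower. Beside the neighbours *Top2a* (-0.37 with the pseudocount) and *Mef2a*, read under these settings after the data were seen, calls that moved at the 1.4-fold threshold belonged to 6 axis genes near it: *Stc2*, *Pik3r3*, *Tsc2*, *Foxo4*, *Igfbp6* and *Tsc1*. Samples with the same replicate number did not deviate alike (correlations of same-numbered deviations -0.17, -0.13 and 0.042). These values cannot settle whether the samples were prepared in pairs. A fit with the replicate block called the same numbers, 2268 transcript clusters and 10 axis genes. With 3 arrays in each group, no group was large enough for a test of outlying arrays. Genes that are not on the table, among them all IGF ligand genes, cannot be described as changed or unchanged.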
